A study of Mus musculus with 9 samples.

Results

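Immediate early genes are switched on within minutes by serum, growth factors and mechanical or chemical stress, without new protein synthesis, through factors such as SRF and CREB that already sit in the nucleus. Their products then set the next round of transcription: Fos and Jun family proteins pair through leucine zippers to form AP-1, and Egr proteins bind GC-rich sites with zinc fingers. In mouse embryonic stem (ES) cells this response is known as a readout of serum, FGF and ERK signalling, and in any tissue it is also known to be induced by enzymatic dissociation and cell sorting. The genes described here are the Fos family members Fos, Fosb and Fosl1, the Jun family members Jun and Junb, the zinc finger factors Egr1 and Egr2, and the early response genes Ier2 and Ier3. They were taken by gene symbol from the probe annotation: 9 genes with 1 probe each, out of 16593 genes with a probe, and all 9 passed the filter that left 10251 genes for testing. Ier3 encodes a membrane protein that acts on cell survival and is no DNA-binding factor, although it is grouped here with transcription factors.

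The study measured bulk total RNA on Illumina mouse bead arrays in 3 states of cells kept in culture, 3 arrays a group. ES cells were 129P2/OlaHsd cells without a reporter, definitive endoderm (DE) was made in culture from R1 ES cells, whose strain is a cross between 129X1/SvJ and 129S1/SV-+p+Tyr- cKitlSl-J/+, and anterior foregut cells (AFE) were made in culture from cells of strain 129X1/SvJ. The labels name 4 lines (AV3, p2lac40, Sox17GFP and Pax9Venus) without tying a line or a sorting gate to a sample, and state that cells of every group were purified by flow cytometry. All lines were maintained on mouse embryonic fibroblasts in medium with fetal bovine serum and LIF and were passaged with trypsin. For endoderm, cells depleted of fibroblasts were plated in a medium whose listed supplements hold no serum, with 10 µM of the ROCK inhibitor Y-27632, then given 5 nM GSKiXV on day 2 and 5 µM IDE-1, a small molecule inducer of definitive endoderm, from that day through day 5. On day 6 they were trypsinised, replated with 10 µM Y-27632 and treated with the blockers of TGF-beta and BMP receptors A83-01 (500 nM) and LDN193189 (100 nM). The day of collection of each group is not stated. Strain, line, medium, gate and the time from dissociation to lysis therefore cannot be told apart from the group, and nothing states that the 3 arrays of a group came from separate cultures, so p-values reflect only how these arrays scatter, which may be technical.

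Levels below are normalized log2 intensities of a gene's probe on 1 array, and changes are differences between the means of 2 groups on that scale, ± SE, from a limma fit to all 9 arrays (n = 3 a group). "Rose" and "fell" are used at an adjusted p under 0.05 over all tested genes, and a probe is called above background at a detection p under 0.05. Most marker genes followed the labels: all 10 tested ES cell markers were lower in DE and in AFE than in ES cells, all 10 tested definitive endoderm markers were higher in DE than in ES cells, and Pax1, a pharyngeal endoderm factor, was above background on 3 of 3 AFE arrays and on 0 DE and 0 ES arrays. Of 6 tested anterior foregut markers, 4 rose and 1 fell (Sox2, also an ES cell factor) in AFE against ES cells, 4 rose and 1 fell (Foxa2) in AFE against DE, and Foxe1 passed in neither comparison. The third array of each group stood apart from the others. ES 3, which alone lay on slide 2, had fibroblast markers a median of 1.49 above ES 1 and 2. DE 3 had endothelial markers a median of 5.19 above DE 1 and 2 and definitive endoderm markers at a median of -1.18 relative to them. AFE 3 had fibroblast markers at a median of -1.57 and anterior foregut markers at a median of -0.83 relative to AFE 1 and 2.

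Of the 9 genes, 7 were higher in ES cells than in either endodermal state. Against DE these differences ran from 2.04-fold for Fosl1 to 22.6-fold for Fosb. In AFE against ES cells 7 of 9 fell and 0 rose, where 42.1% of all tested genes passed, 19.3% falling and 22.8% rising, and their median change was -2.82, against 0.08 over all tested genes. In DE against ES cells 7 fell and 1 rose, where 43.9% of all tested genes passed, 21.7% falling and 22.2% rising, with a median of -1.52 against 0.01. In AFE against DE 2 fell and 0 rose, where 23.0% of all tested genes passed, 10.1% falling and 12.9% rising, with a median of -0.94 against 0.07. By the moderated F-test over the 3 groups 8 of 9 passed, where 55.7% of all genes did. On single arrays, every AFE value lay below every ES value for 7 of the 9 genes, as it did for 26.3% of all tested genes, and every DE value lay below every ES value for 7, as for 28.6%. Values lay wholly above those of ES cells for 0 of 9 in AFE (31.3% of all tested genes) and for 1 of 9, Jun, in DE (28.1%). Against DE, every AFE value lay lower for Fos, Fosb, Junb and Egr1, 4 of 9 (16.0% of all tested genes), and higher for 0 (22.6%). In bulk samples, fewer cells with a transcript and less of it per cell cannot be told apart.

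**Figure D1:**
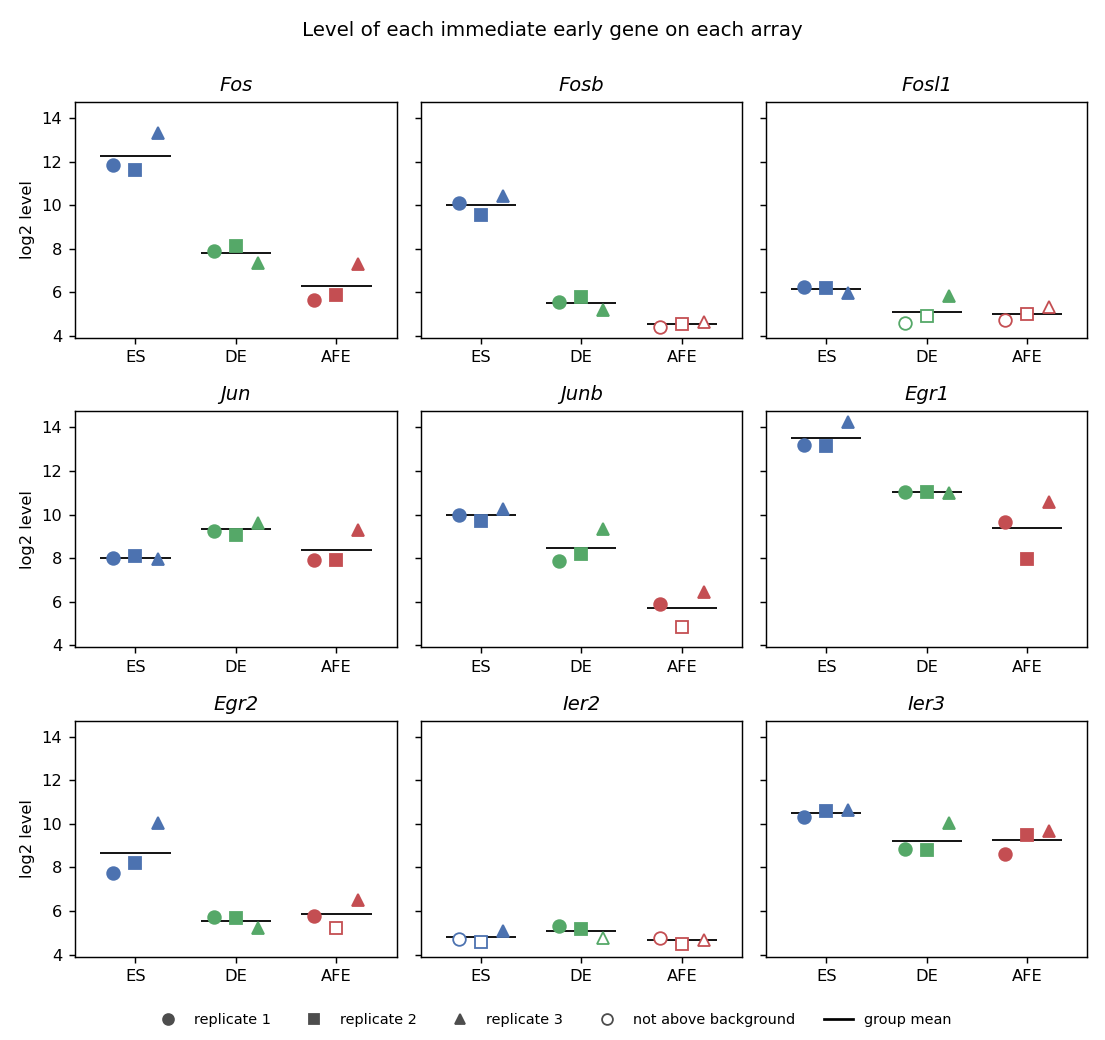
Normalized log2 level (vertical axis) of each of the 9 genes on each ES, DE and AFE array. Symbols are replicates, open symbols are arrays on which the probe was not above background and lines are group means (n = 3 a group); Fos ran from 11.60 to 13.33 in ES cells, from 7.32 to 8.14 in DE and from 5.65 to 7.32 in AFE, and Jun alone among the genes called by the F-test had its highest group mean, 9.31, in DE.

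Fos and Fosb showed the largest differences. Fos protein cannot pair with itself and binds DNA only with a Jun partner, and Fosb is its nearest relative in this set. Fos stood at 11.86, 11.60 and 13.33 on ES 1, 2 and 3, at 7.90, 8.14 and 7.32 on DE 1, 2 and 3, and at 5.65, 5.88 and 7.32 on AFE 1, 2 and 3. All ES arrays lay above all others, ES 3 was the highest, and DE 3 and AFE 3 had nearly the same level. The intensities as deposited, before any normalization, gave the same order of groups: 3444 to 10088 in ES cells, 221 to 551 in DE and 132 to 196 in AFE. Fos fell by 5.98 ± 0.53 in AFE against ES cells (limma adjusted p = 3.41e-05), the drop at rank 23 of 10251 tested genes, and fell by 4.48 ± 0.53 in DE against ES cells (adjusted p = 0.000175). Without ES 3 these changes were -5.45 and -3.95.

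Fosb stood at 10.11, 9.54 and 10.41 on the ES arrays, at 5.57, 5.79 and 5.20 on the DE arrays and at 4.41, 4.53 and 4.66 on the AFE arrays. It was above background on all ES and DE arrays and on 0 of 3 AFE arrays. Its level in AFE was therefore at least 26.0-fold lower than in ES cells, computed against the lowest signal detected on each AFE array. The limma test was of the levels as measured, a change of -5.49 (adjusted p = 8.42e-07), and not of this bound. In DE against ES cells Fosb fell by 4.50 ± 0.25 (adjusted p = 2.18e-06).

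Fosl1, which encodes Fra-1, a family member that lacks the strong activation domain of Fos, was dim everywhere. It stood at 6.23, 6.19 and 5.97 on the ES arrays, at 4.58, 4.90 and 5.83 on the DE arrays and at 4.71, 5.00 and 5.34 on the AFE arrays, and was above background on 3 ES, 1 DE and 0 AFE arrays. The array on which DE cells had it above background was DE 3. Fosl1 was at least 1.75-fold lower in AFE than in ES cells, where the limma test was of the change as measured, -1.12 (adjusted p = 0.0166). In DE against ES cells it fell by 1.03 ± 0.31 (adjusted p = 0.0233). The first call was lost without ES 1 (adjusted p = 0.0565), ES 2 (0.0527) or AFE 1 (0.0609), and the second without ES 1 (0.0708), ES 2 (0.0687), DE 1 (0.0858) or DE 2 (0.0764).

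The Jun family genes moved in opposite directions in DE. Jun, which can pair with itself as well as with Fos proteins, stood at 7.98, 8.11 and 7.97 on the ES arrays, at 9.26, 9.08 and 9.61 on the DE arrays and at 7.90, 7.92 and 9.30 on the AFE arrays. All DE arrays lay above all ES arrays, AFE 1 and 2 lay just below the ES arrays, and AFE 3 lay within the range of DE. Jun was the 1 gene of the 9 that rose in DE against ES cells, by 1.30 ± 0.35 (adjusted p = 0.0140). In AFE against ES cells its change was 0.35 ± 0.35 (adjusted p = 0.442, 95% interval -0.43 to 1.14). In AFE against DE it was -0.94 ± 0.35 (adjusted p = 0.0814), and without AFE 3 it was -1.40 (adjusted p = 0.00238).

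Junb, a weaker activator than Jun that can restrain it, stood at 9.98, 9.72 and 10.24 on the ES arrays, at 7.84, 8.19 and 9.34 on the DE arrays and at 5.87, 4.84 and 6.42 on the AFE arrays. The 3 groups did not overlap, and AFE 2 was not above background. Junb fell by 4.27 ± 0.45 in AFE against ES cells (adjusted p = 9.53e-05) and fell by 2.75 ± 0.45 in AFE against DE (adjusted p = 0.00320), the larger of the 2 falls in that comparison. In DE against ES cells it fell by 1.52 ± 0.45 (adjusted p = 0.0227), a call lost without ES 1 (adjusted p = 0.0593), ES 3 (0.0738), DE 1 (0.0816) or DE 2 (0.0707), while without DE 3 the change was -1.96 (adjusted p = 0.00299).

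The promoter windows of the Fos and Jun family genes are shown because Fos, Fosb and Junb fell together in both comparisons with ES cells while Jun did not. They are RefSeq windows of build GRCm38.p6, 250 bases before the annotated start and 50 from it on, 5′ to 3′ on the strand of the gene, and windows were matched for Fos, Fosb, Jun, Junb, Egr2 and Ier3. Capitals mark the motifs found: TGACG, the core of the site of CREB and ATF factors; TGACATCA, the AP-1-like site known from the Jun promoter; GCGNGGGCG, the site of Egr proteins; and TATAAA, searched on the gene's strand only.

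Fos, chr12:85473640-85473939, strand +: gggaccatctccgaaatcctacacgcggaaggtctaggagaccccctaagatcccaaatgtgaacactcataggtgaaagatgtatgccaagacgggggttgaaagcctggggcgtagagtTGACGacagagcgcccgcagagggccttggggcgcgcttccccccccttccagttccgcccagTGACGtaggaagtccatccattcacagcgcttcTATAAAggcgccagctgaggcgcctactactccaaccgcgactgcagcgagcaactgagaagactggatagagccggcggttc

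Fosb, chr7:19309996-19310295, strand -: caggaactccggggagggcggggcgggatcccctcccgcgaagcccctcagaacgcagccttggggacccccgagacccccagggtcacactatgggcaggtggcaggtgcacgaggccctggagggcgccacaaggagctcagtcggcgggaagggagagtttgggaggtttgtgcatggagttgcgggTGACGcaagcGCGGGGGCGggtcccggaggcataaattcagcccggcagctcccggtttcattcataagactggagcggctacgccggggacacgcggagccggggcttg

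Junb, chr8:84978699-84978998, strand -: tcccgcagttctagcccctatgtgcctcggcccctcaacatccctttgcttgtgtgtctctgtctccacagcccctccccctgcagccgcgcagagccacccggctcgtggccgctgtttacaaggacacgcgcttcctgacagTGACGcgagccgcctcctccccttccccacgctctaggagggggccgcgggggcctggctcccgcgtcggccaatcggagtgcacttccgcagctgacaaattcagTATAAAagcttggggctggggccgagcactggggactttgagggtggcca

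Jun, chr4:95052173-95052472, strand -: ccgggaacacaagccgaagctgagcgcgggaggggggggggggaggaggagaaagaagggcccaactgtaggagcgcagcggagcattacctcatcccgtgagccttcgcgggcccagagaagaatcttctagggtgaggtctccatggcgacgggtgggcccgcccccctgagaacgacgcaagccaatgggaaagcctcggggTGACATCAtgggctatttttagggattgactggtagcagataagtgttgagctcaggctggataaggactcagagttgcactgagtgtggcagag

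TGACG, searched on both strands, was in the windows of Fos (129 and 66 bases before the start), Fosb (60 bases), Junb (106 bases) and Egr2, 4 of 6 matched genes, and in 20.8% of 32851 windows of all genes. The first count is by gene and the share by window, and Egr2 has 5 windows. TGACATCA was in the window of Jun, 45 bases before the start, and in 3.62% of all windows. GCGNGGGCG was in that of Fosb, 50 bases before the start, and in 5.55% of all windows. TATAAA was in the windows of Fos, 33 bases before the start, and Junb, at the annotated start itself, and in 8.32% of all. The full CREB site TGACGTCA and the AP-1 site TGANTCA were in 0 of the 6 genes' windows and in 1.79% and 7.81% of all windows. TGACG and TGACGTCA overlap by their letters. The window of Ier3, which also fell in both comparisons with ES cells, held none of the motifs searched and is not shown. The motifs were chosen with the sequences in view, a match is no evidence of binding, and no match says only that these letters are not in the window. The part of these motifs in the levels of the genes was not tested.

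Egr1 and Egr2 were also highest in ES cells. Egr1, the most widely used marker of ERK and SRF activity in this family, stood at 13.18, 13.16 and 14.25 on the ES arrays, at 11.04, 11.04 and 10.97 on the DE arrays and at 9.67, 7.96 and 10.56 on the AFE arrays. The 3 groups did not overlap; the DE arrays lay within 0.07 of each other, while the AFE arrays spanned 2.60. Egr1 fell by 4.13 ± 0.57 in AFE against ES cells (adjusted p = 0.000411) and fell by 2.51 ± 0.57 in DE against ES cells (adjusted p = 0.00587). The first change was -3.42 without AFE 2, the array with the lowest Egr1. In AFE against DE the change was -1.62 ± 0.57 (adjusted p = 0.0674), and it was -2.20 without AFE 3 (adjusted p = 0.0183) and -0.90 without AFE 2 (adjusted p = 0.151).

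Egr2, also known as Krox20 and needed for hindbrain segments and for myelin, stood at 7.76, 8.19 and 10.04 on the ES arrays, at 5.71, 5.66 and 5.23 on the DE arrays and at 5.79, 5.24 and 6.50 on the AFE arrays. ES 3 lay far above ES 1 and 2, and DE and AFE overlapped, close to background, with AFE 2 not above it. Egr2 fell by 2.82 ± 0.54 in AFE against ES cells (adjusted p = 0.00274) and fell by 3.13 ± 0.54 in DE against ES cells (adjusted p = 0.00148). Without ES 3 these changes were -2.13 (adjusted p = 0.00288) and -2.44 (adjusted p = 0.00149). In AFE against DE the change was 0.31 ± 0.54 (adjusted p = 0.722, 95% interval -0.90 to 1.52).

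Of the 6 genes with a promoter window, Egr2 was the one whose windows held a CArG box, the site of SRF, which was in 1.63% of all windows. With 5 windows Egr2 had more room for a match than the other genes, and the share counts single windows. Of its 5 annotated windows 3 overlap and hold the box CCATATATGG, and another holds CCTTTTTTGG. The window in which the first of these lies 72 bases before the start, with TGACG 111 bases and its reverse complement 55 bases before it, is shown with these matches in capitals.

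Egr2, chr10:67537619-67537918, strand +: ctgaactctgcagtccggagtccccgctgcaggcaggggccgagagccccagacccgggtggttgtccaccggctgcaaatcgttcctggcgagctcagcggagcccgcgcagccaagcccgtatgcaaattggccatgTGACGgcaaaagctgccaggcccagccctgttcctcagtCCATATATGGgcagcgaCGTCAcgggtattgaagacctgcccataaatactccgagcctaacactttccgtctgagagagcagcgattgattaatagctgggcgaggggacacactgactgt

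Ier3 fell moderately and Ier2 did not pass in any comparison. Ier3 stood at 10.32, 10.61 and 10.62 on the ES arrays, at 8.84, 8.79 and 10.03 on the DE arrays and at 8.60, 9.50 and 9.65 on the AFE arrays. All ES arrays lay above all others, and DE and AFE overlapped. It fell by 1.27 ± 0.37 in AFE against ES cells (adjusted p = 0.0218) and fell by 1.30 ± 0.37 in DE against ES cells (adjusted p = 0.0191), and its change in AFE against DE was 0.03 ± 0.37 (adjusted p = 0.968, 95% interval -0.81 to 0.87). The first call was lost without ES 2 (adjusted p = 0.0657), ES 3 (0.0633) or AFE 1 (0.0759), and the second without ES 2 (0.0601), ES 3 (0.0576), DE 1 (0.0691) or DE 2 (0.0703).

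Ier2, a small nuclear protein that takes part in transcription and cell movement, was above background on 3 of 9 arrays, ES 3, DE 1 and DE 2, so its probe gives little information. It ran from 4.56 to 5.10 in ES cells, from 4.77 to 5.31 in DE and from 4.50 to 4.79 in AFE. Its changes did not pass the test: -0.15 ± 0.21 in AFE against ES cells (adjusted p = 0.610), 0.29 ± 0.21 in DE against ES cells (adjusted p = 0.299) and -0.43 ± 0.21 in AFE against DE (adjusted p = 0.171).

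**Figure D2:**
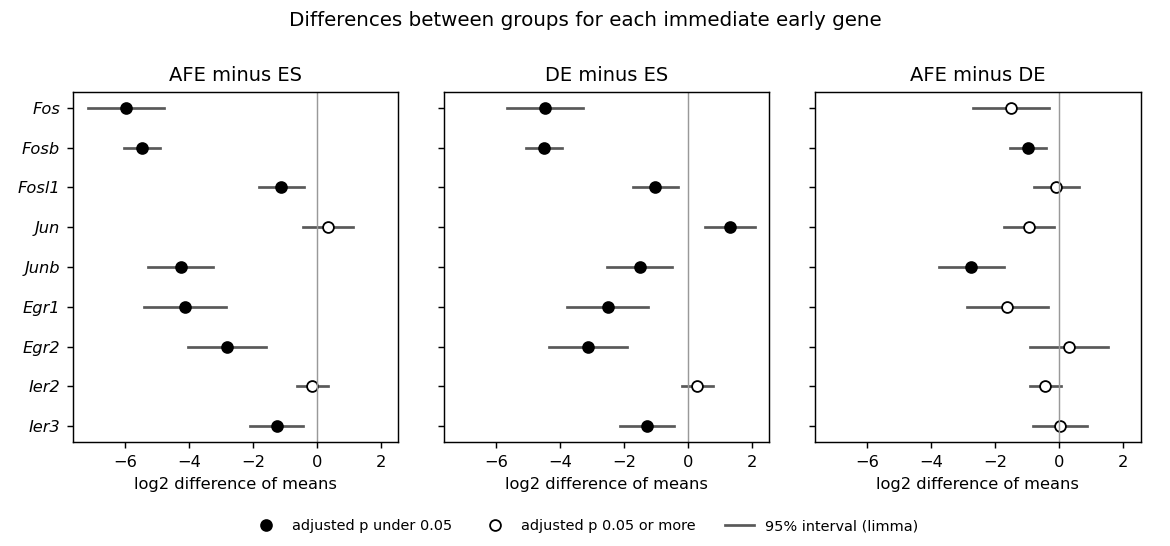
Log2 difference of group means (horizontal axis) for each gene in AFE minus ES, DE minus ES and AFE minus DE, with the 95% interval of the limma fit to 9 arrays; filled points passed at an adjusted p under 0.05. In both comparisons with ES cells 7 genes lie below 0 with filled points, while Jun lies at 1.30 in DE minus ES.

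The order of the groups differed between genes. For Fos, Fosb, Junb and Egr1 the group mean was highest in ES cells, lower in DE and lowest in AFE. The step between the neighbours DE and AFE passed for Junb and Fosb. For Fosb, at background in AFE, the step as measured was -0.99 (limma adjusted p = 0.0200), while its bound, which was not tested, was 1.15-fold. The call was lost without DE 1 (adjusted p = 0.0643), DE 2 (0.0786), AFE 1 (0.0642) or AFE 2 (0.0569). It was also lost without background correction (-0.43, adjusted p = 0.134), with normexp at an offset of 50 (-0.58, 0.0695), with median scaling (-0.87, 0.0524), with cyclic loess (-0.61, 0.111) and in the authors' table (-1.88, 0.258). For Fos the step was -1.50 ± 0.53 (adjusted p = 0.0695), and it passed without ES 3 (adjusted p = 0.0407), DE 3 (0.0454) or AFE 3 (-2.02, adjusted p = 0.0224). For Egr2, Ier3 and Fosl1, DE and AFE did not differ beyond their spread, and for Jun the order was DE, AFE and ES with only the outer pair, DE against ES, passing.

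Several of the 9 genes stood apart on the third array of a group. On ES 3, Fos, Egr1 and Egr2 were 3.03-fold, 2.11-fold and 4.17-fold above the mean of ES 1 and 2, while Jun (0.95-fold) and Ier3 (1.12-fold) were within 1.2-fold. Of all tested genes, 2.57% were at least 2-fold higher on ES 3. Without ES 3, 6 of the 9 genes fell in AFE against ES cells, where 17.9% of all tested genes fell, and in DE against ES cells 5 fell and 1 rose, where 19.7% of all tested genes fell and 19.0% rose. Fibroblast markers were higher there as well. Of 8 tested fibroblast markers, 6 to 8 were above background on ES arrays, 3 to 8 on DE arrays and 4 to 7 on AFE arrays, with summed intensities of 4517 to 8044 in ES cells, 2725 to 3222 in DE and 923 to 2020 in AFE. Sums here and below are of intensities as deposited, to which probes at background also add. In DE, Pdgfra ran from 10.34 to 11.41, while Col1a1, Col3a1, Thy1 and Lum were each above background on 1 array. In AFE against ES cells 3 of the 8 fell (Thy1, Col1a1 and Dcn) and 0 rose, where 19.3% of all tested genes fell. In DE against ES cells 4 fell (the same and Col1a2) and 1 rose (Pdgfra, by 4.35 ± 0.55), where 21.7% of all tested genes fell and 22.2% rose. The part of fibroblasts in the levels of the 9 genes was not tested.

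On DE 3, Junb and Ier3 were 2.51-fold and 2.33-fold above the mean of DE 1 and 2, and Fosl1 was above background there and not on DE 1 or 2, while Fos was at 0.62-fold and Fosb at 0.72-fold. Of all tested genes, 7.53% were at least 2-fold higher on DE 3 and 8.12% at least 2-fold lower. Of 7 tested endothelial markers, 7 were above background on every ES array, 3 to 6 on DE arrays and 4 to 5 on AFE arrays, and their summed intensity ran from 2541 to 4389 in ES cells, from 4038 to 31578 in DE and from 1689 to 2221 in AFE, the highest being DE 3. Of these 7 markers, 6 were at least 2-fold higher on DE 3 than the mean of DE 1 and 2, while Kdr was not above background there (4.79). Fibroblast markers lay a median of 0.79 higher on DE 3, with 3 of 8 at least 2-fold higher. All 8 were above background on DE 3, against 3 on DE 1 and 4 on DE 2. The part of endothelial cells and fibroblasts in the levels of Junb, Ier3 and Fosl1 was not tested. On AFE 3, Egr1, Fos and Jun were 3.35-fold, 2.93-fold and 2.62-fold above the mean of AFE 1 and 2, and Junb, not above background on AFE 2, was also highest there. For Egr1 and Junb, however, AFE 1 lay 1.71 and 1.03 above AFE 2. That is close to the distance of AFE 3 from their mean, 1.74 and 1.07, so AFE 3 does not stand apart for these genes. Of all tested genes, 5.35% were at least 2-fold higher on AFE 3. With ES 3, DE 3 and AFE 3 all left out, 6 genes fell in AFE against DE: Fos, Fosb, Jun, Junb, Egr1 and Ier2, with Fos at -2.25 ± 0.17. Calls were more frequent over all tested genes too in that setting, 48.0% against 23.0% with all arrays. Of all tested genes 21.4% fell and 26.6% rose there, against 10.1% and 12.9% with all arrays. Ier2 was not above background on any AFE array.

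**Figure D3:**
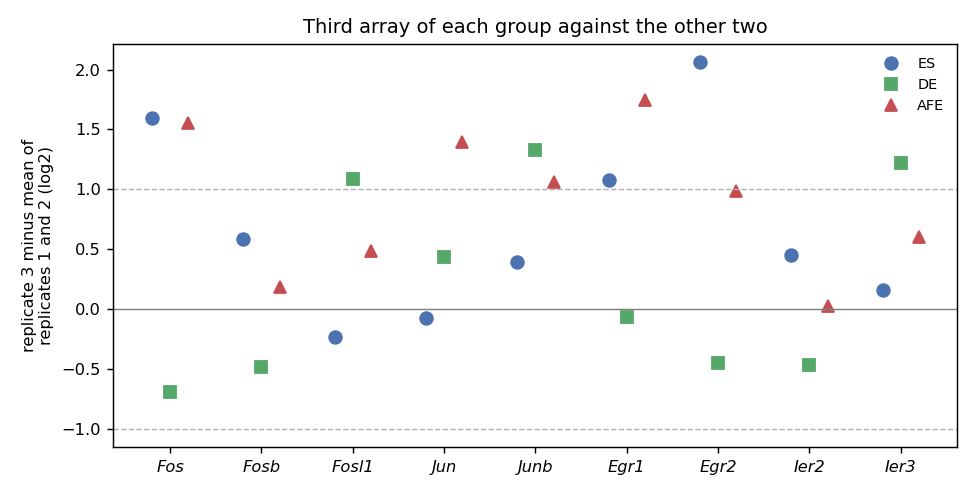
Level on the third array minus the mean of the first and second array of the same group, in log2 units, for each gene in ES cells, DE and AFE; dashed lines mark 2-fold. ES 3 is highest for Egr2 at 2.06, DE 3 for Junb at 1.33 and AFE 3 for Egr1 at 1.74, where AFE 1 also lay 1.71 above AFE 2.

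Other genes of the same response were counted over fixed lists. Among 40 tested other immediate early genes, 19 fell, 3 rose and 18 did not pass in AFE against ES cells, with a median of -0.90. Of all tested genes 19.3% fell and 22.8% rose there. In DE against ES cells 18 fell, 2 rose and 20 did not pass, with a median of -0.77. There 21.7% of all tested genes fell and 22.2% rose. In AFE against DE 5 fell, 3 rose and 32 did not pass, with a median of -0.04, and of all tested genes 10.1% fell and 12.9% rose. Within the list, the largest falls in AFE against ES cells were those of Klf2 (-7.14 ± 1.06), the serum- and glucocorticoid-induced kinase Sgk1 (-5.51 ± 0.43), Klf4 (-4.39 ± 0.47) and Egr4, a relative of Egr1 that was at least 5.44-fold lower. Klf2 and Klf4 are also factors of naive pluripotency and are among the ES cell markers. In DE against ES cells they were Klf2 (-6.17 ± 1.06), the matrix-associated growth regulator Ccn2 (-3.64 ± 0.60), the circadian repressor Bhlhe40 (-3.26 ± 0.77) and Egr4, at least 6.28-fold lower. The genes that rose in AFE against ES cells were Btg1, Homer1 and Klf10, named after their values were seen, and the largest changes in AFE against DE were Sgk1 at -5.02 ± 0.43, Klf4 at -1.93 ± 0.47, Amotl2 at 1.91 ± 0.36 and Ier5l at 1.80 ± 0.42.

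Of 9 tested other AP-1 factors, 0 fell and 2 rose in both comparisons with ES cells, where 19.3% and 21.7% of all tested genes fell and 22.8% and 22.2% rose. In AFE against DE 2 fell and 2 rose, where 10.1% of all tested genes fell and 12.9% rose. The difference of this list from the 9 genes was not tested. Jund, the Jun family member known for steady expression, rose by 1.21 ± 0.31 in DE against ES cells (adjusted p = 0.0116), as Jun did, and fell by 1.68 ± 0.31 in AFE against DE (adjusted p = 0.00552). Mafk, a small Maf protein, rose by 1.43 ± 0.31 in DE against ES cells and was at least 2.72-fold lower in AFE than in DE. Batf, an AP-1 factor known from lymphocytes that lacks an activation domain, was above background on 3 AFE arrays and on 0 DE and 0 ES arrays, at least 4.28-fold higher in AFE than in DE, and Jdp2, a repressor that pairs with Jun, rose by 1.21 ± 0.39 in AFE against ES cells and against DE by 1.61 ± 0.39.

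Upstream and feedback genes were counted in the same way. Of 8 tested genes of SRF, its cofactors and the Egr co-repressors, 1 rose and 0 fell in AFE against ES cells and 2 rose and 0 fell in DE against ES cells. Of all tested genes 22.8% and 22.2% rose in these comparisons, and 19.3% and 21.7% fell. Srf itself changed by 0.36 ± 0.30 in AFE against ES cells (adjusted p = 0.365) and by 0.18 ± 0.30 in DE against ES cells (adjusted p = 0.659). Nab1, a co-repressor of Egr proteins, rose by 0.68 ± 0.23 and 1.11 ± 0.23 in these comparisons, and the SRF cofactor Myocd was at least 8.45-fold higher in DE than in ES cells. Of 8 tested ERK feedback genes, 5 fell and 0 rose in AFE against ES cells, with a median of -0.72, where 19.3% of all tested genes fell. In DE against ES cells 2 fell and 0 rose, with a median of -0.60, where 21.7% of all tested genes fell. Among the ERK feedback genes, the largest falls in AFE against ES cells were those of Etv4 (-3.33 ± 0.73), Spry4 (-3.27 ± 0.63) and Etv5 (-2.17 ± 0.49). The first and last are ETS factors induced by FGF and the other is a feedback inhibitor of ERK signalling.

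Heat shock genes, which are known to rise with immediate early genes when tissue is dissociated, were counted too. Of 10 tested, 3 fell and 0 rose in AFE against ES cells, with a median of -0.37, where 19.3% of all tested genes fell. In DE against ES cells 5 fell and 1 rose, with a median of -0.81, where 21.7% of all tested genes fell and 22.2% rose. In AFE against DE 1 fell and 1 rose, where 10.1% of all tested genes fell and 12.9% rose. The small heat shock gene Hspb1 fell by 5.36 ± 0.36 in AFE against ES cells and by 2.08 ± 0.36 in DE against ES cells. Hsp90aa1 fell too, with changes of -1.53 ± 0.33 and -1.50 ± 0.33, and the stress-induced Hspa1a was at least 1.51-fold lower in AFE and fell by 1.11 ± 0.22 in DE. The constitutive Hspa8 changed by 0.11 ± 0.15 and 0.12 ± 0.15 and did not pass. The part of dissociation and sorting in the levels of the 9 genes was not tested.

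**Figure D4:**
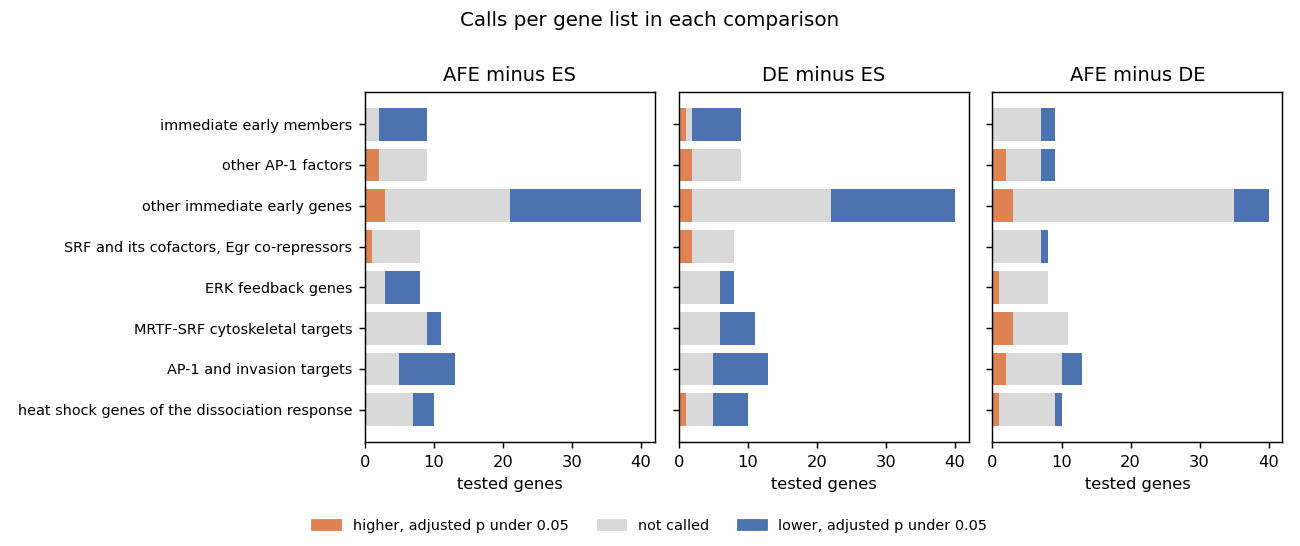
Number of tested genes (horizontal axis) of each list that were higher, lower or not called at an adjusted p under 0.05 in AFE minus ES, DE minus ES and AFE minus DE. Of the other immediate early genes 19 of 40 were lower in AFE than in ES cells, and of the other AP-1 factors 0 of 9, against 19.3% of all tested genes.

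Likeness between genes was measured as the root mean square difference of mean-centred log2 levels over the 9 arrays. Fos lay nearest to Fosb among the 9 genes, at 0.53, nearer than any other tested gene, of which the zinc finger gene Zfp985 (0.72) and Mup6 of the urinary protein family (0.73) came next. Nearest to Fosb were Mup6 (0.34) and Fam25c (0.39), and nearest to Junb were Msn, which links actin to the membrane (0.46), and the pepsinogen gene Pgc (0.49). Nearest to Egr1 were the reductase gene Akr1b8 (0.70) and the cytidine deaminase gene Apobec3 (0.73), with Junb at 0.71. Nearest to Egr2 were Sprr2k (0.34) and the chemokine Ccl2 (0.40), to Jun Smim14 (0.16) and Tmem175 (0.18), to Fosl1 Ppp2r5a (0.17) and Lrmp (0.18), and to Ier3 Slamf9 (0.25) and P3h3 (0.26), with Fosl1 nearer than both, at 0.24.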

How the data were processed

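Probe intensity as deposited is linear and not normalized, judging from the file headers and the values. The detection p-values as deposited score each probe against background, per the file headers. The authors also deposited a log2 table; how it was made is not stated. Its column labelled ES replicate 2 ranks probes like no intensity column and that of ES replicate 3 like the intensities of ES replicate 2, so it served as an alternative.

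In R 4.3.3, neqc of limma 3.58.1 used the detection p-values for background correction (offset 16), quantile normalization and log2 transformation. Probes detected (p under 0.05) on 3 or more arrays were kept (15090 of 25697), and a gene was read from its brightest probe. lmFit and eBayes were fitted to all 9 arrays with no block, and p-values were adjusted by Benjamini-Hochberg over 10251 genes. Each array detected 12628 to 14352 probes; the number of arrays limits the precision. "At least" marks a group with the probe below background on all its arrays: its level there is, per array, the higher of the lowest detected signal and the probe's own. The fit was tested on simulated data. The genes and lists were chosen with earlier results of these data known. Each list's named genes are up to 4 called genes with the largest change, and likeness names the 2 nearest genes.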

Additional observations from a re-analysis of the deposited data

How the results depend on the processing

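Of the called changes of the 9 genes, 0 turned direction under the 24 alternatives run, of which 2 were chosen after seeing the data (the third arrays left out together, and the authors' table without its unmatched column). The count of the 9 genes called in AFE against ES cells, 7, was 4 in the authors' processed table. The count in DE against ES cells, 8, was 1 in that table and 5 in it without the unmatched column. The count in AFE against DE, 2, was 1 without background correction, with normexp at an offset of 50, with cyclic loess and in the authors' table, 4 with median scaling and 6 without the third arrays. In that order, the shares of all tested genes called were 22.7%, 22.8%, 22.1%, 8.61%, 19% and 48%. The F-test count, 8, was 4 in the authors' table. For the F-test the share of all genes was computed with the main settings only. Over all genes, the authors' table called 1335 in AFE against ES cells, 667 in DE against ES cells and 883 in AFE against DE, against 4319, 4503 and 2358. The shares called in the authors' table, 13%, 6.51% and 8.61%, became 35.3%, 37% and 19.9% without its unmatched column. Without the third arrays 4920 genes were called in AFE against DE. The cause was not tested. In AFE against DE the split of 1322 higher and 1036 lower became 652 and 1298 with median scaling, which moved the median change of all genes to -0.12, against 0.07, and 392 and 491 in the authors' table (933 and 1111 without the unmatched column). Leaving out 1 array at a time, the counts of the 9 genes ran from 5 to 7, from 5 to 8 and from 1 to 5 in AFE against ES cells, DE against ES cells and AFE against DE, and from 5 to 8 in the F-test; those of all genes ran from 3274 to 5162, from 3426 to 5022 and from 1421 to 3235. Without background correction the changes in AFE against ES cells were -3.50 for Fosb, -0.42 for Fosl1, -2.94 for Junb and -1.78 for Egr2, and those in DE against ES cells were -3.07 for Fosb, -0.40 for Fosl1 and -1.91 for Egr2. The call lost in AFE against DE under the settings that left 1 gene was that of Fosb. Same-numbered arrays of different groups did not deviate together (correlations of -0.14 to 0.07), and the replicate block gave 7, 8 and 3 of the 9 genes and, over all genes, 4161, 4288 and 2097; Egr1 passed in AFE against DE (adjusted p = 0.0455). The slide as a block equals leaving out ES 3, with 6, 6 and 3 of the 9 genes called, where 37.9%, 38.6% and 22.6% of all tested genes were. Ier2 gave no value under the stricter detection filter, which removed its probe.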

Other observations

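Genes known as targets of AP-1, many of them enzymes and inhibitors of matrix breakdown, were counted as a further list. Of 13 tested, 8 fell, 0 rose and 5 did not pass both in AFE against ES cells, with a median of -1.49, and in DE against ES cells, with a median of -2.20. Of all tested genes 19.3% and 21.7% fell in these comparisons. Timp1, an inhibitor of matrix metalloproteinases, fell by 5.39 ± 0.50 in AFE against ES cells and by 4.78 ± 0.50 in DE against ES cells. The stromelysin gene Mmp3 was at least 18.6-fold lower in AFE and at least 21.5-fold lower in DE than in ES cells, and the collagenase gene Mmp13 was at least 8.60-fold lower in AFE. The list lay a median of 0.76 higher on ES 3 than on ES 1 and 2, the array on which fibroblast markers were highest, and fibroblasts also express these genes; their part in the values was not tested.

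Cytoskeletal targets of SRF with its actin-regulated MRTF cofactors were counted too. Of 11 tested, 5 fell and 0 rose in DE against ES cells, where 21.7% of all tested genes fell, 2 fell and 0 rose in AFE against ES cells, where 19.3% fell, and 3 rose and 0 fell in AFE against DE, where 12.9% rose. The smooth muscle actins Actg2 and Acta2 rose by 1.91 ± 0.31 in AFE against DE and 1.86 ± 0.54, and the tropomyosin gene Tpm2 by 1.83 ± 0.45, while Actg2 fell by 6.40 ± 0.31 in DE against ES cells. The list lay a median of 0.70 higher on AFE 3 than on AFE 1 and 2, the array with the highest Fos, Egr1 and Jun of that group.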
